A study of Neurospora crassa with 16 samples.

Results

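The genes described here are 7 Neurospora crassa genes of carbon source choice: the regulators cre-1, vib-1, clr-1, clr-2, xlr-1 and col-26, and gla-1, which encodes the secreted enzyme glucoamylase. They were found by locus identifier among the 9730 genes of the count files, and the set was put together with earlier results of these data known. All 7 had at least 10 reads in each library. Polyadenylated RNA was sequenced from cultures of strain N5555, mating type a, in which the histone demethylase gene lsd1 is replaced by the hygromycin marker hph (Δlsd1). The labels describe germinated conidia, the asexual spores, grown with shaking (16 h, 32 °C) in Vogel's minimal medium whose carbon source was 1.5% sucrose, a preferred sugar. The reference strain was the wild type N3752, of mating type A per the labels of its ChIP-seq sample, whose 2 RNA-seq libraries belong to another series and enter through 2 tables that the authors deposited, one of genes higher in Δlsd1 and one of genes lower. Strain, mating type and series differ together between the groups and cannot be told apart. The other 14 samples of the series measured DNA methylation or histone marks and were not analysed here.

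In filamentous fungi a preferred sugar such as glucose or sucrose shuts off genes for the use of other carbon sources, and the zinc finger repressor CRE-1 acts in this carbon catabolite repression. In Neurospora, VIB-1 lies upstream and is needed for the cellulose response and for programmed cell death after fusion of incompatible strains. CLR-1 responds to cellobiose and induces clr-2, whose product turns on cellulase genes, XLR-1 does the corresponding task for xylan, and COL-26 acts in glucose sensing and in the use of starch. Glucoamylase releases glucose from the ends of starch chains.

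The Δlsd1 libraries held 7017726 (replicate 1) and 6797672 (replicate 2) reads on genes. The lsd1 locus NCU09120, so named from knowledge of the gene, had 41 and 65 reads, and its log2 fold change was -2.93 in the authors' deposited table (adjusted p = 7.06e-15). The mean normalised counts there were 88.7 in Δlsd1 and 675 in wild type, so some reads remained at the locus. Their source was not tested. Of 8 conidial marker genes the authors' deposited tables hold con-10 and acon-2 as lower and con-6 as higher, the last with an adjusted p of 0.162. Of all genes the authors tested, these tables hold 10.9%. The summed level of the 8 markers was 2985 CPM (reads of a gene scaled to a common library size) in replicate 1 and 2376 CPM in replicate 2. Most of the sum was con-8 (1477 and 1933 CPM) and eas (1351 and 338 CPM), which moved in opposite directions between the replicates. The growth genes gpd-1 and cfp stood at 23917 and 13265 CPM. The labels do not say that the replicates came from separate cultures, so their spread may be technical.

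Of the 6 regulators, cre-1 and col-26 were called lower in Δlsd1, and the enzyme gene gla-1 was called higher, while vib-1, clr-1, clr-2 and xlr-1 were in neither deposited table. Among all 9729 genes the authors tested, 7.76% were called lower and 3.13% higher, 10.9% in either direction. The authors' deposited tables hold only genes with a change of 2-fold or more, and their unadjusted p-values reach 0.0497. Each group mean of these tables is the average of whole read counts, plus 1, divided by a size factor per library, and could therefore be split back into the reads of each library. More than 1 pair of size factors fitted the lowest means, 1464 pairs for Δlsd1 and 3 for the wild type. The rule that picked 1 pair was chosen because it returned the known counts of both Δlsd1 libraries. Its match there, for all 1060 tabled genes, is therefore no check of the wild-type split. For the wild type the chosen pair gave whole reads for all 1060, with size factors of 1.89 (library a) and 1.43 (library b). Those of Δlsd1 were 0.640 and 0.591. Which wild-type library is which sample is not known, and their letters are only names.

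cre-1 (NCU08807, chromosome IV, 5176440 to 5178927, assembly NC12), the repressor gene, had 1256 and 1130 reads in the Δlsd1 replicates, and 10064 and 7379 in the deeper wild-type libraries a and b. In normalised counts these were 1964 and 1915 in Δlsd1 against 5322 and 5158 in wild type. The libraries of each strain lay within 1.03-fold of each other, and both Δlsd1 libraries were far below both wild-type ones. The authors' deposited table gave cre-1 a log2 fold change of -1.43, a level 2.70-fold lower, with an adjusted p of 5.67e-14. Its p-value ranked 72 among the 9729 tested genes, although in size its change was at rank 360 of the 755 lower genes, close to their median of -1.41 in the authors' deposited table. Taking each Δlsd1 library with each wild-type library, the log2 difference ran only from -1.39 to -1.47. In RNA from whole cultures, fewer cells that express a gene and less RNA per cell cannot be told apart.

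col-26 (NCU07788, chromosome V, 287232 to 291574), the gene of the starch and glucose sensing regulator, had 495 and 557 reads in Δlsd1 and 3374 and 2380 in wild type. Its normalised counts were 775 and 945 in Δlsd1 against 1785 and 1664 in wild type. The groups did not overlap, but the decrease only just reached the size needed for the tables. In the authors' deposited table its level was 2.01-fold lower (adjusted p = 1.85e-06), and 749 of the 755 lower genes changed more. With replicate 2 alone the value against the authors' wild-type mean was -0.87, and with replicate 1 alone -1.15. Against wild-type library b alone it was -0.95, so the 2-fold limit for col-26 was met or missed by the choice of library while its direction was the same in every pair, from -0.82 to -1.20.

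gla-1 (NCU01517, chromosome II, 3214128 to 3217500), the glucoamylase gene, had 3504 and 2249 reads in Δlsd1 and 3016 and 2489 in wild type, before correction for the lower depth of Δlsd1. Its normalised counts were 5477 and 3810 in Δlsd1 against 1595 and 1740 in wild type. Both Δlsd1 libraries were above both wild-type libraries, and they also differed more from each other (1.44-fold) than the wild-type libraries did (1.09-fold). The authors' deposited table gave a log2 fold change of 1.48, a level 2.78-fold higher, with an adjusted p of 0.00502. It ranked 73 by size among the 305 higher genes, whose median was 1.25 in the authors' deposited table, while its p-value ranked 1132 or better among the 9729 tested genes, a bound, because the adjusted p can be shared with a later gene. With replicate 1 alone the value was 1.72 and with replicate 2 alone 1.19, and over the pairs of libraries it ran from 1.13 to 1.78.

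**Figure D1:**
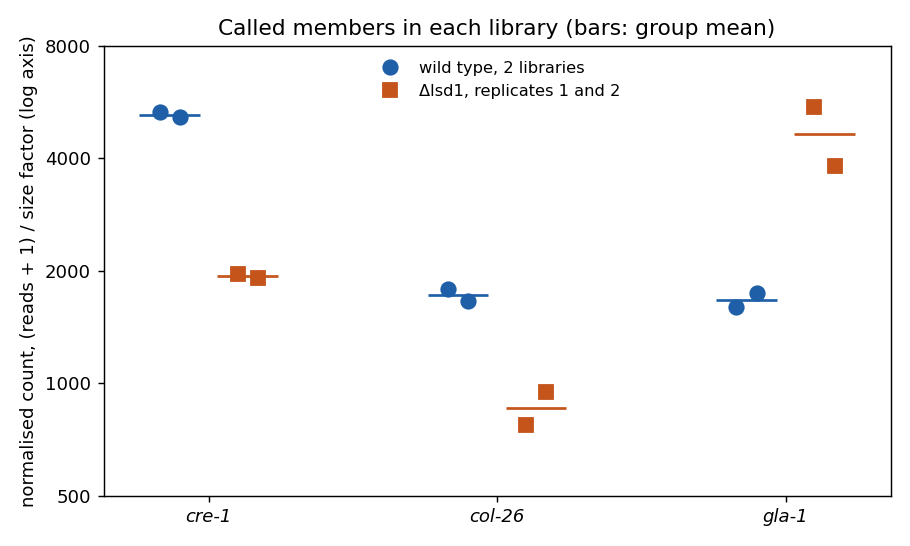
Normalised count, as reads plus 1 divided by the size factor of the library, on a log axis, for the 3 called genes. Circles are the 2 wild-type libraries, squares the Δlsd1 replicates and bars the group means; cre-1 lies at 5322 and 5158 in wild type and at 1964 and 1915 in Δlsd1, col-26 falls from 1724 to 860, and gla-1 is at 5477 and 3810 in Δlsd1.

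The libraries of the strains did not overlap for cre-1, col-26 and gla-1, as for all 1060 tabled genes (100%), so the absence of overlap adds nothing to the call itself. A ratio of 2 genes within a library does not depend on how libraries are scaled to each other. The normalised count of gla-1 was 0.300 and 0.337 times that of cre-1 in the wild-type libraries, and 2.79 and 1.99 times that of cre-1 in Δlsd1, without correction for gene length. Relative to col-26, the gla-1 count was 0.894 and 1.05 in wild type and 7.07 and 4.03 in Δlsd1. The ratio of cre-1 to col-26 moved less, from 2.98 and 3.10 to 2.53 and 2.03. The glucoamylase gene thus passed from below to above the repressor gene in normalised counts. As gla-1 was called higher and cre-1 and col-26 lower, a rise of both gla-1 ratios follows from the calls and adds nothing to them.

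Among 97 other lower genes with a symbol, those closest to cre-1 in the pair of group means of the authors' deposited table were naf-1, acu-15, a transcription factor gene of acetate use, and acu-6, which encodes phosphoenolpyruvate carboxykinase. Closeness was the straight-line distance between log2 means over the 2 strains, 0.38, 0.43 and 0.52. For col-26 the closest in the authors' deposited table were acu-9, malate synthase (0.12), pp-1, a transcription factor gene of sexual development (0.17), and the chaperone gene hsp88 (0.20). For gla-1 the closest of 32 higher genes were sah-1 (0.17), acw-11 (0.18) and dcc-1 (0.25). With only 2 strains, likeness here means no more than a similar level in each.

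vib-1 (NCU03725, chromosome V, 2215819 to 2219221) had 1216 and 1097 reads in Δlsd1, a level of 167 ± 2.42 CPM (SD, n = 2), close to the 172 ± 2.83 CPM (SD, n = 2) of cre-1. Its normalised counts were 1902 and 1859. A 2-fold change would have needed a wild-type mean of at least 3761 or at most 940. Among 412 genes within 1.3-fold of its Δlsd1 level, a width chosen after seeing the data, 13 were tabled lower and 21 higher, and the 17 of them with a log2 change under 1.2 had p-values up to 0.0181. The tables hold no gene with a larger p than their limit, so these values do not show that every 2-fold change at this level would have been tabled. Smaller changes are left out by construction: of the 1885 genes with the smallest p-values, up to an adjusted p of 0.05, 973 were in neither table.

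clr-1 (NCU07705, chromosome IV, 2149157 to 2154036), the cellobiose-responsive regulator gene, had 248 and 243 reads and a level of 35.6 ± 1.56 CPM (SD, n = 2). Its normalised counts in Δlsd1 were 389 and 413, so the wild-type mean would have to be at least 802 or at most 201 for a 2-fold change. xlr-1 (NCU06971, chromosome IV, 4706112 to 4709560), the xylan regulator gene, had 101 and 89 reads and 13.7 ± 0.427 CPM (SD, n = 2). Its normalised counts were 159 and 152, and a 2-fold change would have needed a wild-type mean of at least 312 or at most 77.9. Both replicates were close to each other for both genes.

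clr-2 (NCU08042, chromosome IV, 4001190 to 4004643), the regulator of cellulase genes that lies under clr-1, was the lowest of the 7, with 16 reads in each library and 2.32 ± 0.135 CPM (SD, n = 2). A count of 16 carries a 95% exact Poisson interval of 9.15 to 25.98, which covers counting error only. Its normalised counts were 26.6 and 28.8, and a 2-fold change would have needed a wild-type mean of at least 55.4 or at most 13.8. Among 432 genes within 1.3-fold of its Δlsd1 level, 109 (25.2%) were tabled lower and 5 (1.16%) higher. Over all tested genes these shares were 7.76% and 3.13%. The window was set on the Δlsd1 level, which is itself part of the fold change. A low window therefore favours genes called lower, and these shares say nothing particular about genes at this level. Around gla-1, the member with the highest count, the shares were 2.19% lower and 7.65% higher. The 30 tabled genes within 1.3-fold of the clr-2 level and with a log2 change under 1.2 had p-values up to 0.0446. These largest values did not follow the level of the member: they were 0.00837 around xlr-1, 0.0181 around vib-1 and 0.0453 around col-26.

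Per kb of annotated gene span, the members of Δlsd1 stood in the order gla-1, cre-1, vib-1, col-26, clr-1, xlr-1 and clr-2. gla-1 was at 144 and 101 CPM per kb and cre-1 at 70.1 and 68.5. vib-1 followed at 49.6 and 48.6 and col-26 at 15.8 and 19.4 CPM per kb. The cellulose and xylan regulators were lower, clr-1 at 7.06 and 7.51, xlr-1 at 4.07 and 3.89 and clr-2 at 0.644 and 0.699 CPM per kb. No neighbours in this order overlapped in their replicates. The spans include introns, so a gene with long introns is placed too low on this scale.

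**Figure D2:**
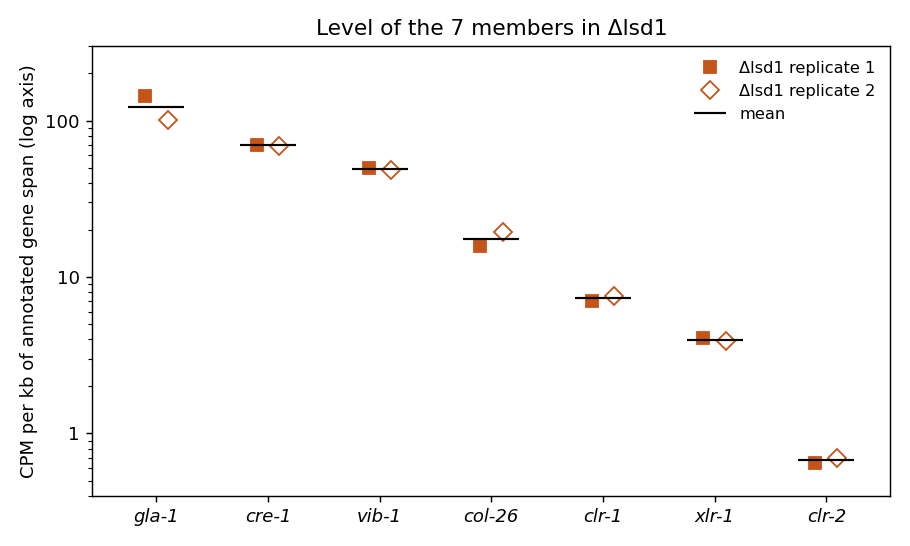
Level of each member in Δlsd1 as CPM per kb of annotated gene span, on a log axis, with a filled square for replicate 1, an open diamond for replicate 2 and a bar for their mean. The members run from 122 for gla-1 to 0.671 for clr-2, and the replicates lie apart visibly only for gla-1 and col-26.

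Between the Δlsd1 libraries, gla-1 and col-26 differed by more than read counting noise, in opposite directions, and the other 5 members did not pass the test. An exact binomial test of each gene's reads between the libraries, adjusted over 7319 genes with at least 10 reads in each, called 27.1% of them, so the libraries are not one library deposited in duplicate. The test covers counting error only, and the 2 of 7 members it called (28.6%) are near that share of all genes. gla-1 was higher in replicate 1 by 0.52 on the log2 scale (adjusted p = 1.01e-39, exact binomial test), and 14.2% of genes differed more in either direction. col-26 was lower in replicate 1, at -0.29 (adjusted p = 0.00624, exact binomial test), a size that 37.0% of genes exceeded. With libraries scaled by total gene counts in place of the trimmed-mean (TMM) factors of edgeR, this call was lost, at -0.22 (adjusted p = 0.0556, exact binomial test). The values of cre-1, vib-1, clr-1, clr-2 and xlr-1 lay between -0.12 and 0.06, with adjusted p from 0.704 to 0.942 by the same exact binomial test. For cre-1 and vib-1 over 91% of genes differed more.

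**Figure D3:**
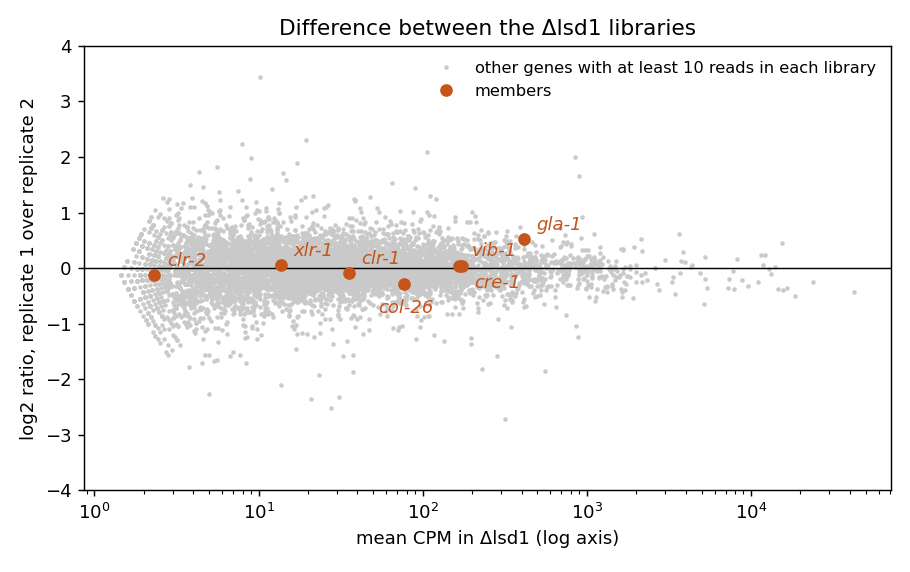
Log2 ratio of replicate 1 over replicate 2 of Δlsd1 against mean CPM, on a log axis, for 7319 genes, with the members as large points. gla-1 lies at 0.52 and col-26 at -0.29, and the other members lie near 0.

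Where gla-1 was higher, in replicate 1, 4 of the 6 conidial marker genes with enough reads for the same exact binomial test were higher too and 1 was lower. Of all genes tested 27.1% differed in either direction, a share not matched to the read depth of these markers. eas, which encodes the hydrophobin of the conidial coat, had 9721 reads there against 2241 in replicate 2. con-10 had 272 and 152, con-6 had 95 and 48, and fl, a regulator gene of conidiation, had 705 and 436. con-8 ran the other way, with 10634 and 12813 reads. acon-2 had 46 reads in each library and acon-3 had 11 and 9. con-13 was near 0, with 1 read in all. The part of these genes in the gla-1 difference between the replicates was not tested.

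Other genes of carbon use and incompatibility, and the conidial markers above, were counted in 9 lists written from knowledge of the genes. The lists hold 74 measured genes other than the members, of which 10 were called lower and 4 higher, and the called ones had a median of -1.26 on the log2 scale in the authors' deposited tables, against -1.22 over all 1060 called genes. None of the 11 genes of starch and alpha-glucoside enzymes was in the tables, beside 3.13% of all genes called higher and 7.76% called lower. The alpha-amylase family gene gh13-1 was the highest of them, with 10169 and 10464 reads, and the second glucoamylase gene gla-2 had 109 and 68. None of 8 genes of the xylan response list was called, where xdh-1 (NCU03350) and gh3-7 (NCU09923) were taken by symbol and not by the listed locus. Of 11 cellulose response genes 1 was called lower, the beta-glucosidase gene gh1-1, with normalised counts of 100 and 72.8 in Δlsd1 against 292 and 370 in wild type and stood at -1.94 on the log2 scale in the authors' deposited table (adjusted p = 2.54e-07). The cellulose list had a median of 3.41 CPM and the xylan list 2.40 CPM in Δlsd1, against 14.2 CPM over all genes, and the main cellulase genes cbh-1 and gh6-2 were both at 15.5 CPM.

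Of 7 sugar transporter genes, 4 were called lower and 1 higher, against 7.76% and 3.13% of all genes. The glucose transporter gene hgt-1 had normalised counts of 642 and 415 in Δlsd1 against 1726 and 1692 in wild type, and stood at -1.69 on the log2 scale in the authors' deposited table (adjusted p = 5.32e-16). The cellodextrin transporter gene cdt-2 had 30 and 14 reads in Δlsd1 and stood at -1.25 in the authors' deposited table (adjusted p = 0.0222). Some loci have no symbol in the reference table and were placed in this list from outside knowledge. Of these, NCU04963 stood at 4379 and 4155 normalised counts in Δlsd1 against 12967 and 15616 in wild type. It was at -1.74 on the log2 scale in the authors' deposited table. NCU02188, another of these loci, had only 14 and 12 reads in Δlsd1 and stood at -2.09 in the authors' deposited table. The transporter list gene called higher, named after its value was seen, was NCU05627, at 1.19 in the authors' deposited table (adjusted p = 0.000659). cdt-1 and NCU01633 were in neither table. Of the 5 called genes, 3 passed the 2-fold limit with either Δlsd1 library taken alone. The exceptions were cdt-2, at 48.4 in replicate 1 against a wild-type mean of 87.7, and NCU05627, at 11718 in replicate 2 against 5924. No test of the list was made, and it is 1 of 9 whose genes were chosen with earlier results of these data known.

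**Figure D4:**
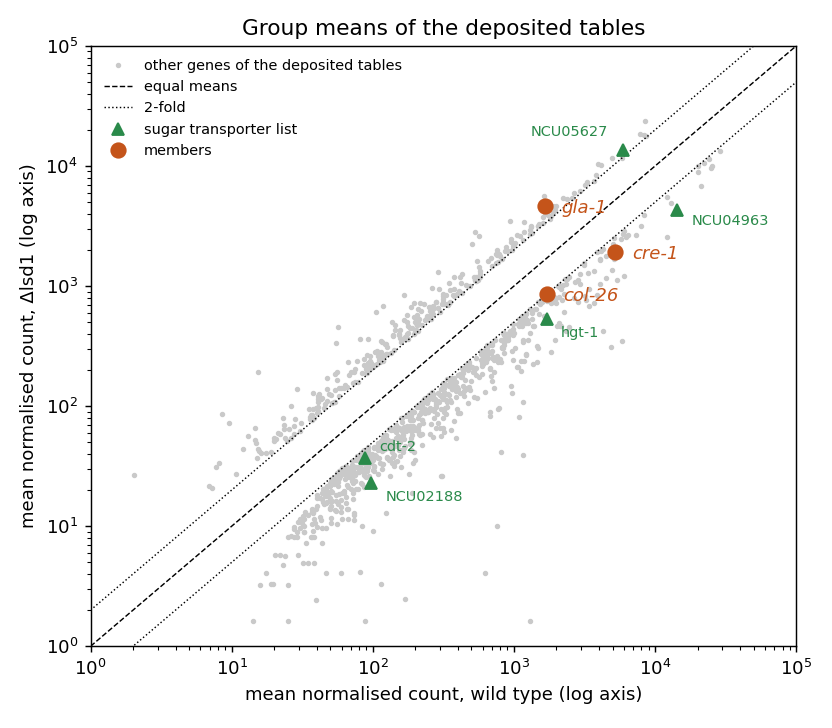
Mean normalised count in Δlsd1 against wild type, both on log axes, for the 1060 genes of the authors' deposited tables, with the dashed line at equality and dotted lines at 2-fold. Large points are cre-1, col-26 and gla-1 and triangles the 5 called genes of the sugar transporter list; col-26 lies on the 2-fold line and gla-1 above the upper one.

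Sucrose use and glycolysis showed no call among its 7 counted genes, among them the invertase gene inv, with 22465 and 18739 reads. Of 10 genes of carbon repression and glucose sensing, 1 was called, pkac-1, a catalytic subunit gene of protein kinase A. It had normalised counts of 3111 and 3217 in Δlsd1 against 1549 and 1435 in wild type, and the authors' deposited table gave a log2 fold change of 1.08 (adjusted p = 1.40e-07). rco-1 and rcm-1, genes of the corepressor that is the counterpart of yeast Tup1 and Ssn6, and the Snf1-type kinase gene prk-10 were in neither table. Of 7 other regulators, acu-15 was called lower at -1.29 and NCU05414 at -1.24 in the authors' deposited table. Of 5 heterokaryon incompatibility genes, a process that needs vib-1, tol was called higher (1.21) and un-24, which encodes a ribonucleotide reductase subunit, lower (-1.11) in the authors' deposited table. pin-c, het-c and het-6 were in neither. Beside the counts of these lists, 7.76% of all tested genes were called lower and 3.13% higher. No test of these lists was made.

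Of the 14 genes next to the members on the chromosome, 9 were in the count files, and 1 of these was called (11.1%, near the 10.9% of all genes), NCU03726 beside vib-1, which was higher at 1.44 on the log2 scale in the authors' deposited table (adjusted p = 1.88e-06). The right-hand neighbour of col-26, 9667 bp away, is ccg-14, with 260307 and 321569 reads in Δlsd1, and it was in neither table. None of the annotated neighbours overlapped a member.

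Of the 7 members, vib-1 was overlapped by one of the 250 deposited regions, as were 2.43% of the 9729 placed genes. That region (chromosome V, 2208164 to 2215849) is 7686 bp long, longer than the median of 2171 bp, with 24 regions longer still. The region covers the annotated noncoding RNA gene NCU14070 whole and its last 31 bp lie in vib-1, 0.911% of the gene's span. The strand of vib-1 is not given in the reference table used, so whether this end is the start or the end of the gene was not determined. The sources used here do not say how the regions were called. Regions were placed by supercontig number, 1 of 2 assignments that fitted the chromosome extents. The overlap and the distances were read under that assignment only. The called members lay far from any region: cre-1 198 kb, col-26 265 kb and gla-1 293 kb away, against a median of 65.5 kb over all genes. The distances of clr-1, xlr-1 and clr-2 were 95.7, 141 and 413 kb.

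**Figure D5:**
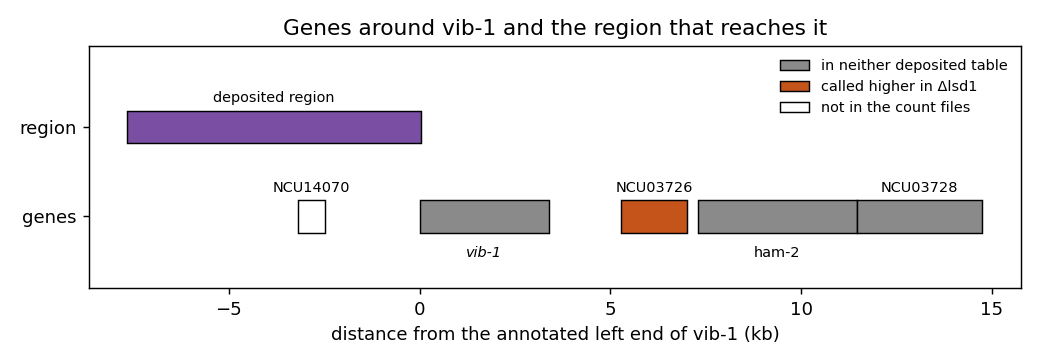
Annotated genes around vib-1 and the deposited region that reaches it, drawn to scale by distance in kb from the annotated left end of vib-1. Under the placement used, the region ends 31 bp inside vib-1, and the called gene NCU03726 lies on the other side.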

How the data were processed

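The deposited count files hold raw read counts per gene. Bowtie2, DESeq2 and deepTools are named in the submitters' processing notes; the sources used here give no versions, counting program or genome build, and do not say whether counting used strand. Rows that name no gene (12.3% and 12.7% of reads outside genes, 3.74% and 3.38% at several places) were left out. Per the file headers, the deposited gene tables hold mean normalised counts (a signal), a fold change (ratio), its log2, and p-values. The deposited region list gives positions only (unit other).

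CPM used edgeR 4.0.16 TMM library sizes (R 4.3.3). The common coefficient of variation between the Δlsd1 libraries, which edgeR terms biological, was 15.3%. It may be technical, as the labels do not say that the replicates came from separate cultures. The share of reads in replicate 1 was tested per gene with an exact two-sided binomial test (scipy 1.17.1), threshold 0.05 after Benjamini-Hochberg adjustment. The code was tried on simulated data with counting error only, which does not show the error rate of the test in these libraries. With 1 group of counts, no count model across strains was fitted.

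The deposited group means were split on the lattice of 2 unknown size factors; all values came within 1e-06 of whole reads. On the lowest means, 3 pairs of factors did so for the wild type and 1464 for Δlsd1. The pair with the largest steps was taken, a rule chosen because it returned the known counts in Δlsd1. The wild-type median log2 ratio of the libraries, not used in the choice, was -0.02 over all 1060 tabled genes. For the next pair it was 1.11 in size, but over the lowest means only, so the 2 values are not the same measure. No value is given for the remaining pair. Tabled genes were selected on the result, so the recovered reads were not tested. The number of tested genes, 9729, and p ranks came from adjusted over unadjusted p. Regions were placed by supercontig number, 1 of 2 assignments whose extents match the NC12 reference table within 10000 bp; 9729 of 9730 counted genes matched that table.

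Members and lists were chosen with earlier results of these data known. The rule for named genes took the members, their neighbours, up to 4 called genes a list by size, and the 3 symbol-bearing tabled genes nearest to each called member. Uncalled list genes, the markers and the transporter list gene called higher were named outside it, after their values were seen. Of the list entries, 6 loci carry another symbol in the reference table and con-11 was not found there, and these were left out. Entries were matched by symbol first, so xdh-1, gh3-7 and un-24 were counted at NCU03350, NCU09923 and NCU03539. The lists as written gave other loci for them. Alternatives were another scaling, another filter, each replicate left out, the added 1 and the threshold.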

Additional observations from a re-analysis of the deposited data

How the results depend on the processing

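Of 36 recomputed values of single members that have a threshold, 33 kept their direction and their side of it. The other 3 all concern col-26: its log2 fold change was -0.87 without replicate 1 and -0.95 without wild-type library a, both under the 2-fold limit, and its difference between the Δlsd1 libraries had an adjusted p of 0.0556 by the exact binomial test when total counts replaced TMM. The 14 member levels under another scaling moved by less than the SD of the replicates; leaving out 1 of 2 replicates cannot move a mean by more than the SD, so those 14 values say nothing about stability. The number of genes that differed between the libraries was 1983, and ran from 1949 to 2083 over other scalings and a filter of 1 read in either library. The count of 3 called members was 3 at an adjusted p under 0.05 and without the added 1, and 2 without replicate 1, where col-26 was lost. It was 2 as well when every Δlsd1 library had to lie at least 2-fold from every wild-type library, an alternative chosen after seeing the data, as were those that leave out a wild-type library or admit the 6 loci with another symbol. Of the 14 called list genes, 13 had an adjusted p under 0.05, 11 passed the 2-fold limit with either Δlsd1 library taken alone, and the 6 added loci brought none. No paired analysis was possible because only the Δlsd1 group has count files and the wild-type libraries carry no replicate number. The coding length and the promoter motifs were not run, for want of sequences here. The wild-type libraries are known only for genes in the tables, so the uncalled members have no wild-type value.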
